A study of Mus musculus with 12 samples.

Results

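The genes described here are 10 transcripts that mark the endothelial cells of the liver or belong to the signal that maintains them. They were Stab1, Stab2, Lyve1 and Clec4g, which mark the endothelium of the sinusoids, Kdr, Flt1 and Pecam1, which are made by most endothelial cells, Cd34 and Plvap, which mark capillaries and larger vessels, and Vegfa, which encodes a growth factor for these cells. They were taken by symbol from a deposited table of 25676 genes in which all 10 were found. All 10 were also among the 12278 genes with a mean of at least 0.5 TPM that were tested. TPM, a transcript abundance scaled to the same sum in every library, is the share of a library's transcripts that belong to a gene, corrected for the gene's length. RNA was sequenced from whole liver of 12 C57BL/6 mice aged 3 to 4 months. The knockout group (KO, labelled Foxa3-Cre YAP1 KO) held 3 males and 3 females, and the wild-type group (WT) held 3 males and 3 females. Cre driven by Foxa3 is active in the embryonic endoderm, the source of hepatocytes and bile duct cells, whereas endothelial cells come from mesoderm. The labels give no floxed allele and do not say whether the WT mice carried one. Each title carries a number of its own, read here as 1 mouse per library, so the p-values measure the spread between these mice.

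Sinusoids are the wide capillaries between the plates of hepatocytes. Their endothelial cells are perforated by open fenestrae, lie on little basement membrane and clear waste molecules from blood through scavenger receptors. Capillaries of most other organs have a continuous wall or fenestrae closed by diaphragms, and their endothelium carries CD34. In liver, CD34 is normally found on the vessels of the portal tracts and on large veins, and sinusoids that lose their fenestrae and gain a basement membrane are described as capillarised. Hepatocytes are a main source of VEGF-A in liver, and sinusoidal cells receive it through the receptor KDR.

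The libraries held 19650948 to 27826411 reads, recovered from the steps of the TPM values, and 14321 to 15482 genes above 0. Yap1 was at 23.0 to 34.9 TPM in WT and at 0.994 to 3.11 TPM in KO. Over all tested genes the median difference between KO and WT was 0.35 on the log2(TPM + 1) scale, so a gene at that value had moved with the bulk of the table. Median-of-ratios rescaling divides each library by a factor that brings the typical gene to the same level. The factors were 0.724 to 0.949 in WT and 1.09 to 1.34 in KO, and rescaling moved the median difference to -0.04. The genotype and sex comparisons of the 10 genes and the counts of the other gene lists are therefore given on both scales, while the differences of single list genes are those on the deposited scale unless stated. Hepatocyte transcripts dominated as the label liver implies, with Alb at 42088 to 83194 TPM, and all 10 genes were above 0 in all 12 libraries. WT male 2, which had the lowest factor, holds a second number in its label apart from the run of those of the other livers. The labels do not say what that number means. KO female 1 and WT female 3 carry numbers from an earlier run of the animals' numbering. KO female 1 was the highest of the 6 KO livers for 8 of the 10 genes and KO male 2 the lowest for 7 of them, so values without these libraries are given where they change a call of the 10 genes on the deposited scale.

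Promoters are shown for Cd34, Stab2 and Clec4g, on which the contrast of capillary with sinusoidal genes turns, and for Kdr, added after its values were seen. Of the 10 genes, 7 matched the RefSeq promoter table (GRCm38.p6), each with 250 bases before and 50 after the start of the transcript, and Lyve1, Pecam1 and Plvap did not. The letters GGAATG (a TEAD motif), AGGAAG (an ETS motif) and ACGTG (1 form of the core of the hypoxia response element) were searched on both strands and are in capitals where found. The windows, in the order printed, are chr1:194938571-194938870 on the plus strand, and chr10:87007893-87008192, chr8:3720602-3720901 and chr5:75978406-75978705 on the minus strand.
Cd34: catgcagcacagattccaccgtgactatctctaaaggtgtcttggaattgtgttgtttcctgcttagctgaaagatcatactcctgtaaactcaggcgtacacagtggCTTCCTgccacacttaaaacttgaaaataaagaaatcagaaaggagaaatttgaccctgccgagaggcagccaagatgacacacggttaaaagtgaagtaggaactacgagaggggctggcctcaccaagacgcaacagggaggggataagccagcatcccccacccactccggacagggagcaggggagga
Stab2: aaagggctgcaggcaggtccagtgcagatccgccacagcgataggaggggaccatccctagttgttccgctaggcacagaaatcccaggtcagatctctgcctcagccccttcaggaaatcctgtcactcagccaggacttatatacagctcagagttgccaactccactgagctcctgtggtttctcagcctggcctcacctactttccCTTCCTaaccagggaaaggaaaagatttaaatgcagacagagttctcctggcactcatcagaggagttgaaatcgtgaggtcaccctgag
Clec4g: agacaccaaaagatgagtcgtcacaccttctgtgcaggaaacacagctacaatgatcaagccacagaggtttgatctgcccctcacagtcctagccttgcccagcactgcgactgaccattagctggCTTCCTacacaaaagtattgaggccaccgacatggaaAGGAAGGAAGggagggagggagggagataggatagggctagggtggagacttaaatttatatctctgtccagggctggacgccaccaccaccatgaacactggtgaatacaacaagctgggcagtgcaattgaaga
Kdr: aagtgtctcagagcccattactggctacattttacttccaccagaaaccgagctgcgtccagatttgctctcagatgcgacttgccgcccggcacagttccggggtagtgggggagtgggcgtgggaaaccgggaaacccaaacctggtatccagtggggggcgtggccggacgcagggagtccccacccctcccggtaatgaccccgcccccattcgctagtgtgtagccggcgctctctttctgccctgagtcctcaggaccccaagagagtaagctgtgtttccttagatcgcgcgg
The capitals in the windows of Cd34, Stab2 and Clec4g are all the ETS letters, which read CTTCCT where they lie on the opposite strand. Clec4g held 3 of them, of which 2 overlap and form the single longer run of capitals, and Cd34 and Stab2 held 1 each. Stab1 held 1 and Flt1 held 2, while the Kdr window held none of the 3 strings of letters. Only these exact letters were searched, so other forms of the motifs were not counted in any window. The ETS letters were thus in 5 of the 7 genes and are in 35.4% of all 32817 promoters of this length, a difference that was not tested. The TEAD letters, in 14.7% of all promoters, were in none of the windows of these 7 genes, which says only that these letters are not in these windows. The hypoxia letters, in 19.6% of all promoters, were found once, in the second of the 2 Vegfa windows. That window, chr17:46025114-46025413, lies inside the gene. The first Vegfa window, chr17:46032328-46032627, is at the start of the gene and held none of the letters searched.

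Comparing all 6 KO with all 6 WT livers asked how loss of Yap1 in the endoderm-derived cells of the liver was reflected in its endothelial transcripts. On the deposited scale 3 of the 10 genes passed an adjusted p of 0.05 with limma. Cd34 and Stab1 rose and Kdr fell. That count stands beside a background of 54.9% of all tested genes past the same threshold, 50.1% higher and 4.82% lower in KO. After rescaling 4 of the 10 passed, Cd34 higher and Kdr, Lyve1 and Vegfa lower, against 39.6% of all genes, 20.9% higher and 18.7% lower. The share of the 10 genes called was thus below the background as deposited and near it after rescaling. Cd34 and Kdr were the genes called on both scales. In whole liver, fewer endothelial cells and less of a transcript per cell cannot be told apart.

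**Figure D1:**
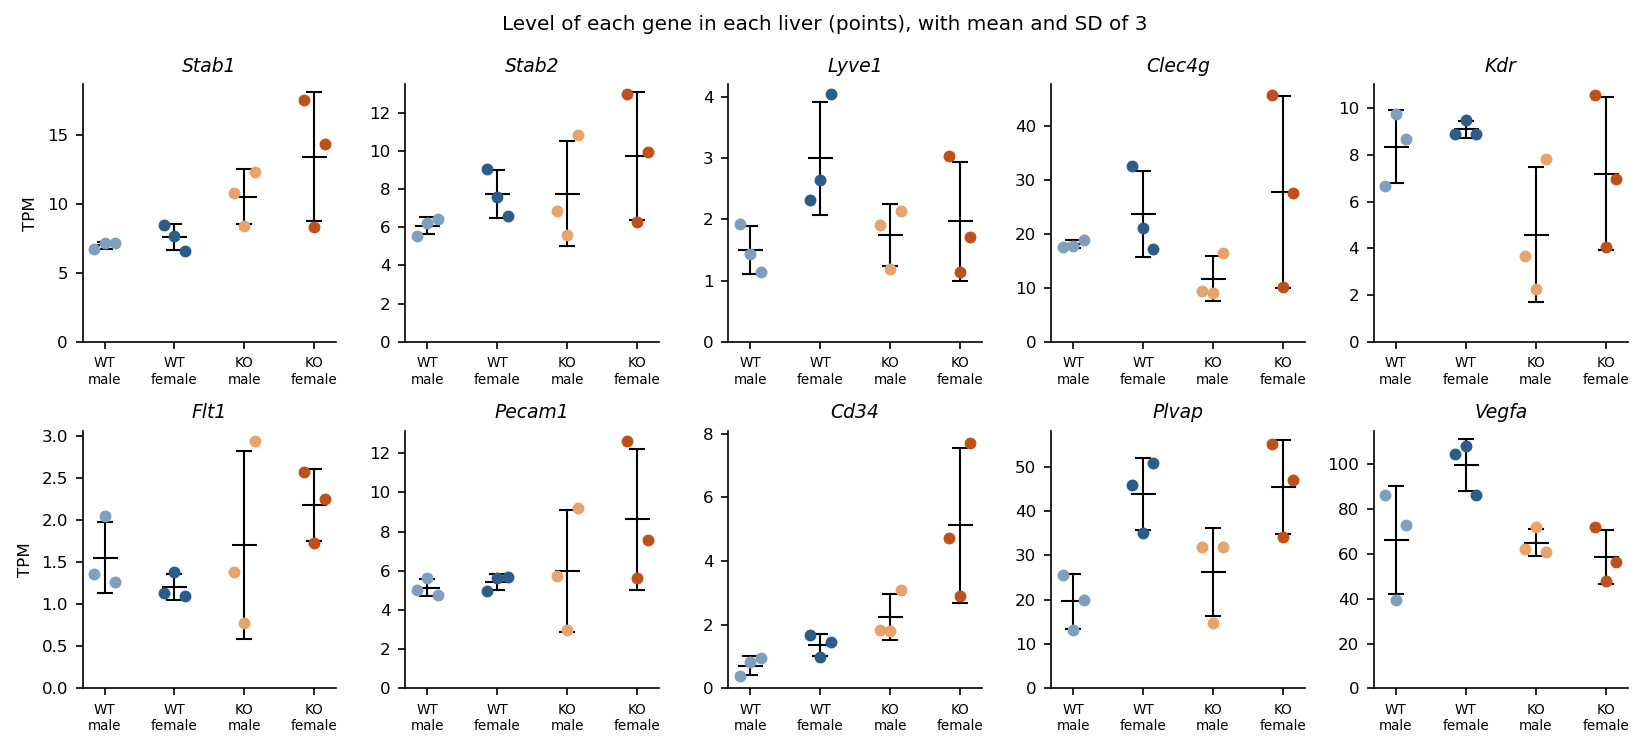
TPM (y axis, linear, from 0) of each of the 10 genes in each liver, by genotype and sex on the x axis. Points are the 3 livers of a group, and the bars are the mean and SD. For Cd34 the 6 KO points lie above the 6 WT points, from 1.81 TPM upward against at most 1.67, while for the other 9 genes the genotypes overlap. The Cd34 separation holds in deposited TPM and not after rescaling.

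In WT the levels followed the order Vegfa (mean 82.9 TPM), Plvap (31.7), Clec4g (20.9), Kdr (8.72), Stab1 (7.30), Stab2 (6.91), Pecam1 (5.27), Lyve1 (2.25), Flt1 (1.38) and Cd34 (1.04). The ranges of neighbours in that order overlapped except between Clec4g and Kdr and between Pecam1 and Lyve1. In KO the mean of Cd34, 3.68 TPM, was above those of Lyve1 (1.86) and Flt1 (1.94), and the 6 Cd34 values, 1.81 to 7.71 TPM, overlapped theirs.

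Gene positions below are those of GENCODE M21 on GRCm38. Of the sinusoidal genes, the 2 stabilins are giant scavenger receptors that take up damaged proteins. Stab1 (ENSMUSG00000042286, chromosome 14, 31139013 to 31168641, minus strand) was at 6.70, 7.15 and 7.17 TPM in the 3 WT males and at 8.49, 7.70 and 6.59 in the 3 WT females, against 10.8, 8.38 and 12.3 in the KO males and 17.5, 8.32 and 14.4 in the KO females. KO male 2 and KO female 2 lay within the WT range and the other 4 KO livers lay above every WT liver. The difference was 0.60 on the log2(TPM + 1) scale (SE 0.16, limma adjusted p = 0.00578). After rescaling it was 0.18 (adjusted p = 0.351, limma), so the call was lost. Stab1 is also made by macrophages. Of 12 macrophage markers 11 rose and 0 fell, and after rescaling 10 rose and 1 fell. Their summed level was 97.9 to 323 TPM in WT and 558 to 1144 TPM in KO, and their part in the Stab1 value was not tested.

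Stab2 (ENSMUSG00000035459, chromosome 10, 86841198 to 87008025, minus strand), the stabilin most restricted to sinusoids, was at 5.56, 6.24 and 6.44 TPM in WT males and 9.07, 7.57 and 6.60 in WT females. In KO it was at 6.85, 5.60 and 10.8 TPM in males and 12.95, 6.28 and 9.94 in females. KO male 3, KO female 1 and KO female 3 lay above every WT liver and the other 3 lay among them. The difference of 0.26 did not pass (95% interval -0.11 to 0.63, limma adjusted p = 0.218), and it was -0.15 after rescaling (limma adjusted p = 0.440).

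Lyve1 (ENSMUSG00000030787, chromosome 7, 110850607 to 110863239, minus strand) encodes a hyaluronan receptor of sinusoidal and lymphatic endothelium. It was at 1.92, 1.44 and 1.14 TPM in WT males and 2.31, 2.64 and 4.05 in WT females, and at 1.91, 1.18 and 2.14 in KO males and 3.04, 1.15 and 1.72 in KO females. All 6 KO values lay within the WT range, and these levels rest on 32 to 165 reads. The difference was -0.16 (limma adjusted p = 0.484) and became -0.46 after rescaling (limma adjusted p = 0.0475). Of the 5 lymphatic markers tested 0 passed with limma, as deposited and after rescaling, 1 was higher at an unadjusted p under 0.05, and limma voom gave 0.

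Clec4g (ENSMUSG00000074491, chromosome 8, 3707064 to 3720651, minus strand) encodes LSECtin, a lectin of sinusoidal cells. It was at 17.7, 17.9 and 18.9 TPM in WT males and 32.6, 21.1 and 17.2 in WT females. In KO it was at 9.49, 9.03 and 16.5 TPM in males and 45.8, 10.2 and 27.5 in females. The 3 KO males and KO female 2 lay below every WT liver and KO female 1 lay above every WT liver. The means were close, 20.9 ± 5.91 TPM in WT and 19.8 ± 14.6 TPM in KO (SD, n = 6), with a wider spread in KO. The difference of -0.30 did not pass (95% interval -0.94 to 0.35, limma adjusted p = 0.416), nor did the rescaled value of -0.74 (limma adjusted p = 0.0579). Without KO female 1 the rescaled value was -0.97 (limma adjusted p = 0.00705), so 1 library decides that call. The deposited value was also moved by single livers, to -0.54 without KO female 1 (limma adjusted p = 0.0814) and to -0.08 without KO female 2 (limma adjusted p = 0.799). In males alone the difference was -0.64 as deposited (limma adjusted p = 0.213) and -1.19 after rescaling (limma adjusted p = 0.0382).

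Differences between the 4 sinusoidal genes were not tested, and their intervals overlap in part. Clec4g per Stab2, a ratio chosen after the values were seen and given as a description, was 2.61 to 3.597 in WT. It was 1.39 to 1.62 in the 3 KO males and KO female 2, and 2.77 and 3.54 in the other 2 KO females. Stab1 per Stab2 was 0.935 to 1.21 in WT and 1.14 to 1.58 in KO, and 5 of the 6 KO livers were above every WT liver.

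Of the capillary genes, Cd34 (ENSMUSG00000016494, chromosome 1, 194938819 to 194961279, plus strand) encodes a sialomucin of the vessel surface that is also made by blood progenitors, fibroblasts and mesothelial cells. It was at 0.384, 0.812 and 0.938 TPM in WT males and 1.67, 0.976 and 1.44 in WT females, and at 1.83, 1.81 and 3.08 in KO males and 4.73, 2.90 and 7.71 in KO females. In deposited TPM every KO liver was above every WT liver, a pattern that 1 of the 10 genes and 30.6% of all tested genes showed in either direction. This separation was not kept after rescaling. Dividing by the factors of KO male 2 (1.15) and WT female 1 (0.929) puts WT female 1 above KO male 2. The levels were low, with 11 to 53 reads in a WT library and 44 to 215 in a KO library. The mean was 1.04 ± 0.460 TPM in WT and 3.68 ± 2.25 TPM in KO (SD, n = 6). The difference was 1.11 on the log2(TPM + 1) scale (SE 0.19, limma adjusted p = 0.000339) and 0.82 after rescaling (limma adjusted p = 0.00359). The pseudocount of 1 compresses so low a gene, and with 0.1 in its place the difference was 1.66. Cd34 passed under all 23 alternatives, among them each of the 12 that leave out 1 liver, with values from 0.82 to 1.66.

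The fibroblast and mesothelial markers are genes of other cells that can make CD34. Of 8 tested, 7 rose and 0 fell, beside 50.1% of all genes higher, and 4 rose and 0 fell after rescaling, beside 20.9%. Their summed level went from 9.03 to 18.2 TPM in WT to 28.8 to 59.9 TPM in KO. Dpt, a matrix protein of fibroblasts, rose by 1.77, Col15a1 by 1.42, Wt1, a mesothelial transcription factor, by 1.25 and Pdgfra by 1.03. Msln, a mesothelial surface protein named after its values were seen, was listed at 0 in at least 1 WT liver and was at 0.531 TPM or more in every KO liver. These are the lowest values of each genotype and do not show whether the genotypes overlap. The part of these cells in the Cd34 value was not tested.

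Plvap (ENSMUSG00000034845, chromosome 8, 71497765 to 71511752, minus strand) encodes the protein of the diaphragms that close fenestrae and caveolae. It was at 25.7, 13.2 and 19.99 TPM in WT males and 45.9, 35.0 and 50.8 in WT females, and at 31.9, 14.8 and 31.9 in KO males and 55.0, 34.2 and 47.0 in KO females. KO female 1 was the only KO liver outside the WT range, and females lay above males of the same genotype. The genotype difference was 0.20 (95% interval -0.26 to 0.67, limma adjusted p = 0.440) and -0.25 after rescaling (limma adjusted p = 0.341). Plvap passed under none of the 23 alternatives. Plvap per Cd34, a ratio also chosen after the values were seen, went from 16.3 to 66.8 in WT to 6.09 to 17.4 in KO.

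**Figure D2:**
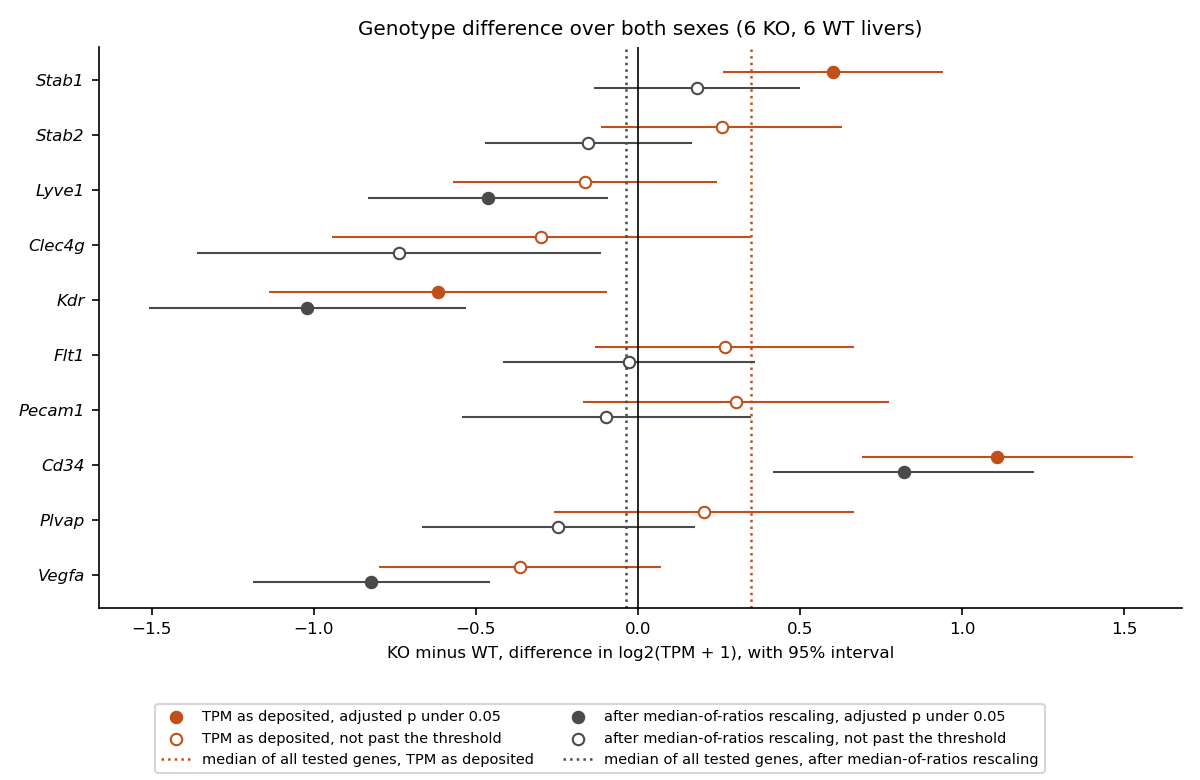
Difference between KO and WT over both sexes for each gene (x axis, log2(TPM + 1), bars are 95% intervals), on deposited TPM (orange) and after median-of-ratios rescaling (grey). Filled points passed an adjusted p of 0.05 and the dotted lines are the medians of all tested genes, 0.35 and -0.04. Cd34 and Kdr are filled on both scales, at 1.11 and 0.82 and at -0.62 and -1.02.

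The contrast of capillary with sinusoidal genes was taken within each library, where a common scale cancels except for the pseudocount. It is the mean log2(TPM + 1) of Cd34 and Plvap minus that of Stab1, Stab2, Lyve1 and Clec4g, and it is given without a test because the genes were chosen with results known. It was -0.25, -0.51 and -0.16 in WT males and 0.14, -0.06 and 0.40 in WT females. In KO it was 0.40, 0.13 and 0.26 in males and 0.27, 0.88 and 0.94 in females. The 3 KO males lay above the 3 WT males, the KO and WT females overlapped, and 3 of the 6 KO livers lay above every WT liver.

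The KO minus WT difference of this contrast was 0.56, with 0.57 in males and 0.54 in females, beside an SD of 0.245 within groups. Cd34 minus the sinusoidal mean was -2.39 to -1.81 in WT and -1.37 to -0.29 in KO, with no overlap and a difference of 1.01 (0.85 in males and 1.17 in females). Plvap minus the sinusoidal mean was 0.98 to 2.60 in WT and 1.38 to 2.47 in KO, with a difference of 0.10 that averages 0.30 in males and -0.10 in females. In TPM, Cd34 stood at 1.21 to 4.18 for each 100 TPM of the 4 sinusoidal genes in WT and at 5.97 to 14.4 in KO. Plvap stood at 40.4 to 147 for each 100 in WT and 61.0 to 132 in KO. When levels were summed before the ratio was taken, so that the abundant Plvap carried the weight, the difference was 0.23 in place of 0.56.

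**Figure D3:**
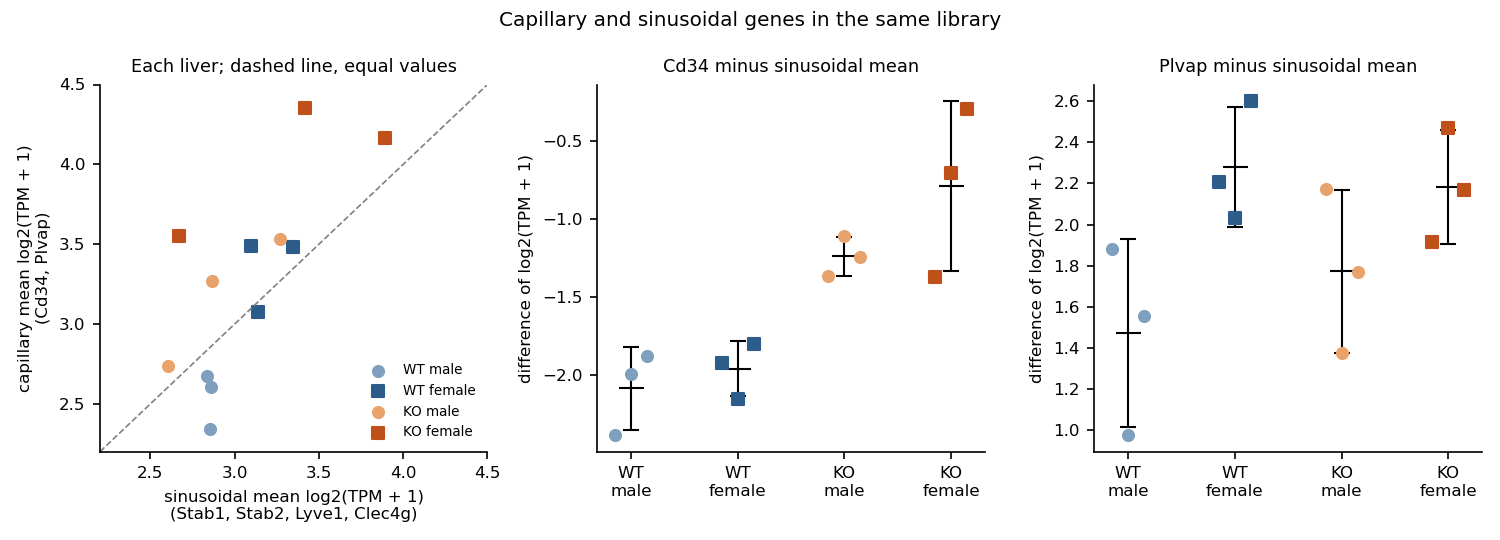
Left, mean log2(TPM + 1) of Cd34 and Plvap (y axis) against that of Stab1, Stab2, Lyve1 and Clec4g (x axis) in each liver, with a dashed line of equal values. Middle and right, Cd34 and Plvap minus the sinusoidal mean in each liver with the mean and SD of 3. Cd34 separates the genotypes (at most -1.81 in WT, at least -1.37 in KO) and Plvap does not.

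Vegfa (ENSMUSG00000023951, chromosome 17, 46016993 to 46032369, minus strand), the ligand, was the most abundant of the 10 genes. It was at 86.4, 39.6 and 72.8 TPM in WT males and 104, 108 and 86.3 in WT females, and at 62.1, 71.8 and 60.8 in KO males and 71.8, 47.9 and 56.4 in KO females. All 6 KO livers lay within the WT range, whose lower end was set by WT male 2, and the 3 KO females lay below the 3 WT females. The difference over both sexes was -0.36 (limma adjusted p = 0.140). It passed at -0.82 after rescaling (limma adjusted p = 0.00189) and at -0.55 without WT male 2 (limma adjusted p = 0.00457). In limma voom on the recovered reads, without rescaling, it also passed at -0.54 (limma voom adjusted p = 0.0458). In females Vegfa fell by 0.77 as deposited (limma adjusted p = 0.0288) and by 1.11 after rescaling (limma adjusted p = 0.00247). In males it passed on neither scale and the direction depended on the setting. The male difference was 0.04 as deposited (limma adjusted p = 0.906), -0.53 after rescaling (limma adjusted p = 0.0985) and -0.29 on the deposited scale without WT male 2 (limma adjusted p = 0.231).

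Kdr (ENSMUSG00000062960, chromosome 5, 75932827 to 75978458, minus strand) encodes the receptor that carries most of the VEGF-A signal. It was at 6.66, 9.72 and 8.67 TPM in WT males and 8.89, 9.49 and 8.87 in WT females, and at 3.66, 2.28 and 7.82 in KO males and 10.6, 4.04 and 6.97 in KO females. KO males 1 and 2 and KO female 2 lay below every WT liver, and KO female 1 lay above every WT liver. The mean was 8.72 ± 1.08 TPM in WT and 5.89 ± 3.10 TPM in KO (SD, n = 6). The difference was -0.62 (SE 0.24, limma adjusted p = 0.0441) and -1.02 after rescaling (limma adjusted p = 0.00306). On the deposited scale the call was fragile. It was kept in 2 of the 12 fits that left out 1 liver, without KO female 1 and without KO male 3. In the other 10 fits the limma adjusted p was up to 0.10, with the difference between -0.45, without KO male 2, and -0.65. With no filter on low values it was also lost (limma adjusted p = 0.0739).

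Flt1 (ENSMUSG00000029648, chromosome 5, 147561604 to 147726011, minus strand) encodes VEGFR1, a receptor that binds VEGF-A tightly and signals little. It was at 1.36, 2.04 and 1.26 TPM in WT males and 1.13, 1.39 and 1.10 in WT females, and at 1.39, 0.772 and 2.94 in KO males and 2.57, 1.72 and 2.25 in KO females. KO male 3 and KO females 1 and 3 lay above every WT liver and KO male 2 below. The difference was 0.27 (95% interval -0.13 to 0.67, limma adjusted p = 0.236) and -0.03 after rescaling (limma adjusted p = 0.922). Without KO male 2 it passed on the deposited scale at 0.41 (limma adjusted p = 0.0405).

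Kdr per Flt1, a ratio of the receptors chosen after the values were seen and given as a description, was 4.76 to 8.10 in WT and 2.35 to 4.11 in KO. All 6 KO livers were below every WT liver, in males (4.76 to 6.86 against 2.64 to 2.95) and in females (6.85 to 8.10 against 2.35 to 4.11). The share of gene pairs whose ratio separates the genotypes was not computed. Of single tested genes, 30.6% separated them in deposited TPM.

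Pecam1 (ENSMUSG00000020717, chromosome 11, 106654217 to 106750628, minus strand) encodes CD31, an adhesion protein of endothelial cells, platelets and leukocytes. It was at 5.03, 5.61 and 4.76 TPM in WT males and 4.95, 5.61 and 5.68 in WT females, and at 5.74, 2.99 and 9.20 in KO males and 12.6, 5.65 and 7.56 in KO females. The WT livers lay close together, whereas in KO 4 livers lay above every WT liver, KO male 2 lay below and KO female 2 lay among them. The difference was 0.30 (95% interval -0.17 to 0.78, limma adjusted p = 0.257) and -0.10 after rescaling (limma adjusted p = 0.739). Without KO male 2 it was 0.48 on the deposited scale and passed (limma adjusted p = 0.0370). Of the 3 platelet markers tested, Pf4, a platelet chemokine, rose by 1.65 and the other 2 did not pass. The summed platelet markers were at 1.88 to 5.09 TPM in WT and 4.31 to 14.05 TPM in KO, and their part in the Pecam1 value was not tested.

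The 8 endothelial genes other than Cd34 went up and down together among the KO livers. Over the 6 KO livers the 28 pairs of these genes had Pearson correlations of 0.67 to 0.98 with a median of 0.88, and all 28 were positive. Over the 6 WT livers the median was 0.22 and 18 of the 28 were positive. Taken as deviations from the mean of each sex, the medians were 0.88 in KO and -0.06 in WT. The genes of a pair share their libraries and the scale of those libraries, and these values are a description over 6 livers each. Set against the WT mean of its sex, KO female 1 was higher for 8 of the 8 genes with a median difference of 0.69. KO male 3 was higher for 6 with a median of 0.68, and KO female 3 for 6 with a median of 0.30. KO male 2 was lower for 7 with a median of -0.43, and KO female 2 lower for 5 with a median of -0.30. KO male 1 was higher for 5 with a median of 0.14. These differences are on the deposited scale. Every KO factor of the rescaling was above every WT factor, so rescaling lowers all of these differences. KO male 3 and KO female 1 also had the largest factors, 1.34 and 1.28.

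Cd34 correlated with the 8 genes at a median of 0.71 in KO and 0.56 in WT, and as deviations from the mean of each sex at 0.62 and 0.11. In deposited TPM its 6 KO livers were all above every WT liver, but not after rescaling. In KO male 2, where Kdr, Pecam1 and Flt1 were below every WT liver, Cd34 was at 1.81 TPM as deposited against at most 1.67 in WT. Vegfa correlated with the 8 genes at a median of 0.14 in KO and 0.41 in WT, and as deviations from the mean of each sex at 0.37 and -0.03.

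**Figure D4:**
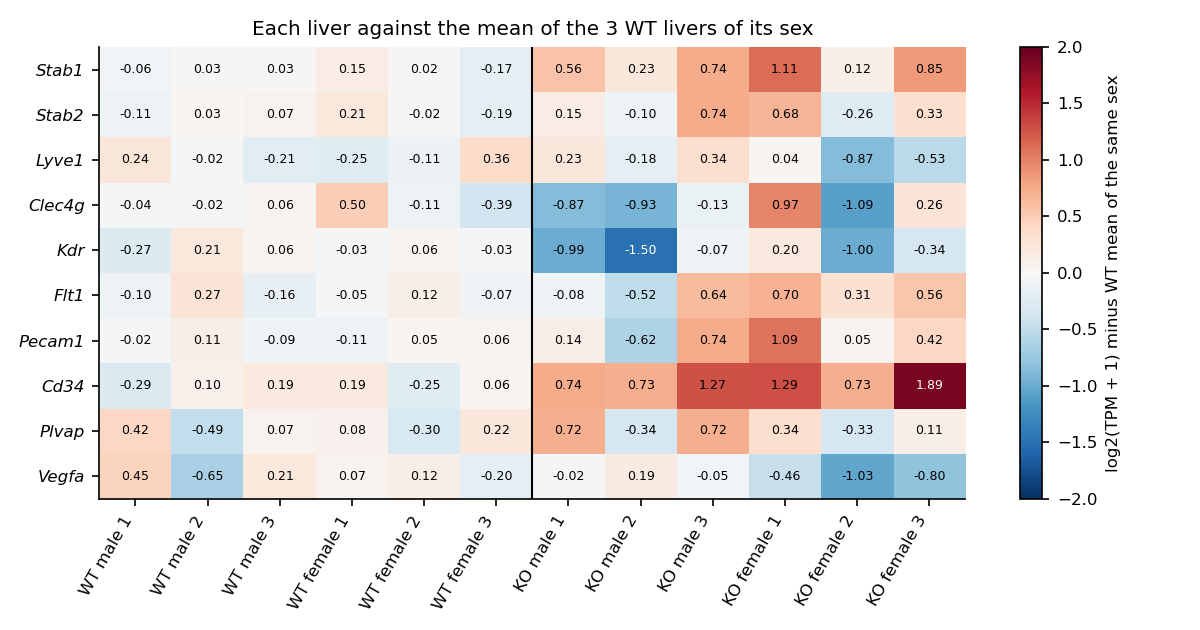
Log2(TPM + 1), on deposited TPM, of each gene (rows) in each liver (columns) minus the mean of the 3 WT livers of the same sex. Red is higher and blue lower, with the value printed. The Cd34 row is positive in all 6 KO livers, from 0.73 to 1.89, and the other endothelial rows change together from one KO liver to the next.

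The genotypes were also compared within each sex. In males 1 of the 10 genes passed with limma, Cd34, against 46.1% of all genes. Its difference was 0.91 (limma adjusted p = 0.0164) as deposited, and after rescaling it was 0.60 and did not pass (limma adjusted p = 0.114). Without WT male 1, the WT liver with the lowest Cd34, it was 0.77 and 0 of the 10 genes passed, with Cd34 and Kdr the 2 at an unadjusted p under 0.05, and without KO male 3 it was 0.74 and did not pass. Kdr in males was at -0.85 as deposited (limma adjusted p = 0.0554) and passed without KO female 1, whose absence changes the estimate of spread and not this difference (limma adjusted p = 0.0404). It also passed without KO female 2 (limma adjusted p = 0.0361) and, at -1.24, without KO male 3 (limma adjusted p = 0.00878). Stab1 in males, at 0.51 (limma adjusted p = 0.0831), passed without KO female 2 (limma adjusted p = 0.0281). After rescaling 2 of the 10 genes passed in males, against 24.1% of all genes. They were Kdr, which fell by 1.35 (limma adjusted p = 0.00588), and Clec4g. In females 3 of the 10 passed, Cd34, Stab1 and Vegfa, against 33.8% of all genes. Cd34 rose by 1.31 (limma adjusted p = 0.00274) and Stab1 by 0.69 (limma adjusted p = 0.0320). After rescaling 3 of the 10 passed in females, against 26.1% of all genes, with Lyve1 in place of Stab1. Cd34 then rose by 1.04 (limma adjusted p = 0.01002), Vegfa fell by 1.11 (limma adjusted p = 0.00247) and Lyve1 fell by 0.70 (limma adjusted p = 0.0435), while Stab1 was at 0.37 (limma adjusted p = 0.196). On the deposited scale Lyve1 in females was at -0.46 (limma adjusted p = 0.183) and passed without KO female 1 at -0.70 (limma adjusted p = 0.0474). Flt1 in females, at 0.52 (limma adjusted p = 0.130), passed without KO male 3 (limma adjusted p = 0.0389), whose absence changes only the estimate of spread. The Stab1 call in females was lost without WT female 2 or 3 or KO female 1 or 3, with values from 0.49 to 0.71. The Vegfa call in females was lost without WT female 1 or 2 or KO female 2 or 3, with values from -0.63 to -0.75.

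The interaction test, the male effect minus the female effect, passed for 0 of the 10 genes with limma on both scales, against 0.912% of all genes as deposited and 0.839% after rescaling. At an unadjusted p under 0.05 there was 1 as deposited, Vegfa, at 0.80 (SE 0.35, limma adjusted p = 0.524), and 0 after rescaling, where Vegfa was at 0.58 (limma adjusted p = 0.759). Limma voom on the recovered reads gave 0 at either threshold when scaled to their totals, and with rescaling it gave 0 after adjustment and 1, Flt1, before it. For Cd34 the interaction was -0.39 as deposited (95% interval -1.23 to 0.44) and -0.45 after rescaling, so on the deposited scale an effect in females larger by up to 1.23 lies within the error. Without KO female 3 it was -0.10 and without KO female 2 it was -0.68, so its size rests on single livers.

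Between the sexes, 1 of the 10 genes passed with limma in WT, against 5.74% of all genes. Plvap was lower in WT males than in WT females by a difference of -1.15 (SE 0.31, limma adjusted p = 0.0457), and the 3 males, at most 25.7 TPM, lay below the 3 females, at least 35.0 TPM. After rescaling the difference was -0.94 and did not pass (limma adjusted p = 0.0790). With limma 0 of the 10 genes then passed, against 4.38% of all genes, and 2 had an unadjusted p under 0.05, Lyve1 and Plvap. The call was also lost without any 1 of WT male 2, WT females 1, 2 and 3, KO males 1 and 3 and KO female 3, with values from -0.91 to -1.30. In KO 0 of the 10 passed with limma on both scales, against 0.0814% of all genes on each, and limma voom also gave 0. At an unadjusted p under 0.05 there were 3 in KO, all lower in males, namely Clec4g (-1.01), Cd34 (-0.86) and Plvap (-0.82), and the same 3 after rescaling, at -0.996, -0.83 and -0.82. Single livers moved these deposited values, Clec4g to -0.54 without KO female 1 and to -1.58 without KO female 2, Cd34 to -0.57 without KO female 3 and Plvap to -0.47 without KO male 2. The interaction for Plvap was 0.33 as deposited (95% interval -0.61 to 1.26) and 0.12 after rescaling, so the sex difference was not shown to differ between the genotypes.

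Further genes of the endothelium and of the pathway were taken from lists that held none of the 10, 4 of whose genes stand in more than 1 list. Each list's count stands beside the shares of all genes, 50.1% higher and 4.82% lower as deposited and 20.9% higher and 18.7% lower after rescaling. Of 22 other sinusoidal genes tested, 6 rose and 3 fell, with a median of 0.23 beside 0.35 over all genes, and after rescaling 5 rose and 6 fell. Bmp6, a ligand that sinusoidal cells send to hepatocytes to control iron, rose by 2.95 (2.58 after rescaling), Cd36, a scavenger receptor and fatty acid transporter, by 2.79 (2.35 after rescaling), Ptgs1 by 1.45 and Thbd, thrombomodulin, by 1.37. Cd36 was at 6.35 to 26.7 TPM in WT and 90.1 to 121 TPM in KO, and hepatocytes and macrophages can also make it. The 3 that fell, named after their values were seen, were Oit3 (-0.72), Bmp2 (-0.72) and Dnase1l3 (-0.70, a nuclease that sinusoidal cells secrete). Aass, the most abundant of the list, had a difference of 0.24 (limma adjusted p = 0.128).

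The 19 other pan-endothelial genes gave 3 rises and 0 falls as deposited, with a median of 0.06, and 0 rises and 4 falls after rescaling, so the direction of the list depends on the scale. Cdh5, the cadherin of endothelial junctions, rose by 0.88, Fli1 by 0.61 and Ets1 by 0.50, and Eng, the most abundant, was at 0.15 (limma adjusted p = 0.503). Without KO female 1 the list gave 2 rises and 2 falls as deposited, and Ets1 no longer passed (limma adjusted p = 0.0933). Their summed level was 107 to 153 TPM in WT and 75.8 to 225 TPM in KO, overlapping.

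Of 17 capillary and large-vessel genes tested, 9 rose and 0 fell as deposited, with a median of 0.56, where 50.1% of all genes rose, so the share that rose was near the background. After rescaling 7 rose and 0 fell with a median of 0.19, where 20.9% of all genes rose and the median of all genes was -0.04. Cd9, a tetraspanin also made by epithelial cells, rose by 3.52 and was the most abundant. Col4a1 and Col4a2, the chains of basement membrane collagen, rose by 2.38 and 1.66 (1.94 and 1.23 after rescaling), and Vcam1, an adhesion receptor for leukocytes, by 1.78. These 4 genes are not made by endothelial cells alone. Without KO female 1 the list gave 8 rises and 0 falls. Beside it, of 8 stellate cell markers 4 rose and 1 fell as deposited, among them Pdgfrb by 1.84, Hand2 by 0.93 and Hgf by 0.88, while Ecm1, the most abundant, fell by 0.92, and after rescaling 2 rose and 4 fell, Hand2 being at 0.56 (limma adjusted p = 0.0581). The part of these cells in the list was not tested.

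In the VEGF and angiopoietin pathway 7 of 18 genes rose and 2 fell, with a median of 0.19, and after rescaling 3 rose and 5 fell. Angptl4, a secreted lipase inhibitor and the most abundant of the list, fell by 1.18 and Spry4, a feedback inhibitor of growth factor signalling, by 1.08. Pdgfb, by which endothelial cells recruit pericytes, rose by 1.15 and Plxnd1, a semaphorin receptor of endothelium, by 0.97. Of the oxygen-sensing genes, which include regulators and targets of the factors that control Vegfa, 7 of 15 rose and 1 fell, with a median of 0.48, and after rescaling 5 rose and 3 fell. Ndrg1 rose by 1.88, Adm by 1.70 and Slc2a1, a glucose transporter, by 0.98, and Pdk1 fell by 1.34. Bnip3, the most abundant, was at -0.08 (limma adjusted p = 0.787).

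**Figure D5:**
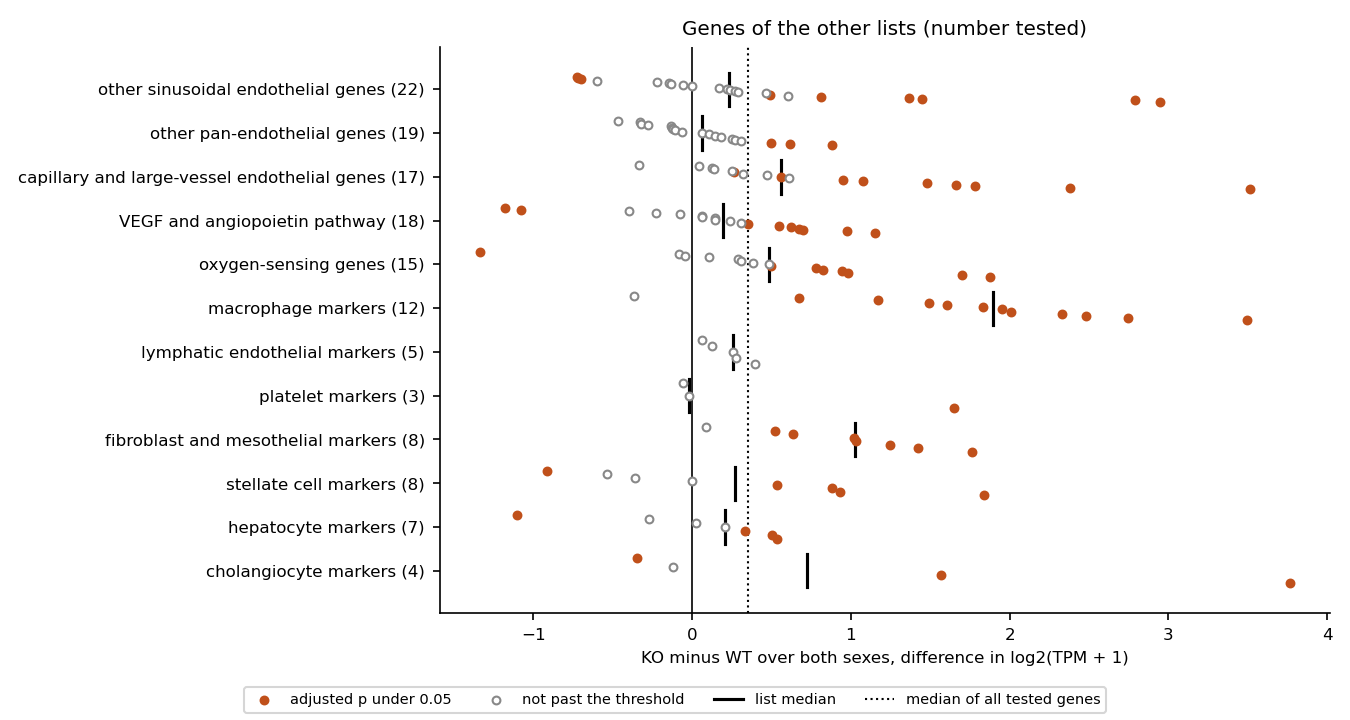
Difference between KO and WT over both sexes (x axis, log2(TPM + 1), deposited scale) of each tested gene of the other lists (y axis, number tested in brackets). Filled points passed an adjusted p of 0.05, bars are list medians and the dotted line is the median of all tested genes, 0.35. Macrophage and fibroblast markers have medians of 1.89 and 1.03, and the sinusoidal and pan-endothelial lists 0.23 and 0.06.

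Markers of other liver cells give the setting for these values. The macrophage list had a median of 1.89, with Marco at 3.49, Lyz2, the most abundant, at 2.75, Cd68 at 2.48 and Cd5l at 2.33. The bile duct markers Spp1 and Sox9 rose by 3.76 and 1.57 and Epcam fell by 0.35, and 2 of 4 rose and 1 fell on both scales. The fall of Epcam did not pass on the deposited scale without KO female 1 (-0.32, limma adjusted p = 0.0610), nor in either sex alone. Of 7 hepatocyte markers 3 rose and 1, Ttr, fell by 1.10 as deposited, and 0 rose and 2 fell after rescaling. Serpinc1 rose by 0.50, Fgb by 0.53 and Hnf4a by 0.33 on the deposited scale, and Alb, the most abundant, was at -0.27 (limma adjusted p = 0.186) and fell by 0.74 after rescaling (limma adjusted p = 0.00825). The most abundant lymphatic marker, Prox1, which hepatocytes also make, was at 0.25 (limma adjusted p = 0.338).

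Among all tested genes, those most like Stab2 over the 12 livers were Rasip1 (Pearson r 0.98), Mef2c (0.95) and Mrc1 (0.93). Those most like Clec4g were Ripply3 (0.97), Cd300lg (0.94) and Clec14a (0.94). Plvap was followed most closely by Sod3 (0.96), Ccbe1 (0.95) and Sept4 (0.94), and Cd34 by Atp6v0e2 (0.97), Anapc7 (0.95) and Oxct1 (0.94). Within the 6 WT and within the 6 KO livers these correlations were 0.80 or higher. They are the highest of many and share libraries and scale, so they are a description.

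In the authors' deposited table, which gives 1 comparison of KO with WT, Cd34 has a log2 fold change of 1.74 and Kdr one of -0.92, both with an FDR printed as 0.00. Vegfa in the authors' deposited table stands at -0.70 with an FDR of 0.02. Stab1 in the authors' deposited table stands at 0.32 with an FDR of 0.24. The other 6 genes have an FDR of 0.36 or more in the authors' deposited table, and Plvap stands at 0.14.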

How the data were processed

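TPM per gene for 12 livers, 1 column each summing to 1000000, were deposited by the authors. The submitters' processing notes name GRCm38 and edgeR, and the aligner and counter are not given in the sources used here. Groups came from sample titles, and replicate numbers follow the order of deposition. The 10 genes and the gene lists were chosen with earlier results of these data known, and list members named are those past the threshold with the largest absolute differences, up to 4, plus the most abundant, and any other is said to have been chosen after its values were seen or stands among the closest correlates. Genes with a mean of at least 0.5 TPM were tested on log2(TPM + 1) with limma 3.58.1 in R 4.3.3 (eBayes with an intensity trend), two-sided, with Benjamini-Hochberg adjustment over the 12278 genes and a threshold of 0.05. This scale understates the change of low genes. Genotype was fitted over all 12 livers with sex as covariate, and the other comparisons came from 1 model of the 4 group means. Where TPM times length was a whole multiple of 1 constant per library (17326 of 17332 genes, within 0.01 reads), whole reads were recovered, and they served for depth and for limma voom. Alternatives were a pseudocount of 0.1, other filters, rescaling, leaving out the 20 most abundant genes, no trend, an animal-series covariate and leaving out livers. The scripts were tested on simulated data. The authors' deposited table also holds the authors' fold change, log2 fold change and FDR p-value, used only where named. Gene identifiers were matched to GENCODE M21 (GRCm38) for 25635 genes. Columns of no sample numbered 0. The counts, differences and intervals rest on 3 livers a group, and reads without molecular identifiers are not independent molecules.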

Additional observations from a re-analysis of the deposited data

Results flagged for a closer look

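In 26 sets of 6 livers of 1 genotype, 3 values lay far from the other 5 for the spread of their set, and chance gives about 1 in 20. Clec4g in WT female 1 was at 32.6 TPM, the highest of the WT livers. Kdr in WT male 1 was at 6.66 TPM, the lowest of the WT livers. Flt1 in WT male 2 was at 2.04 TPM, the highest of the WT livers.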

How the results depend on the processing

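No paired analysis was possible because the replicate numbers follow the order of deposition and pair no livers. Of 1380 values of the 10 genes in 6 comparisons under 23 alternatives, 48 lost and 26 gained a call. The sign changed in 95, of which 56 came under a median-of-ratios scaling, and in 0 of these was either value past the threshold. In the genotype comparison these were Stab2, Flt1, Pecam1 and Plvap, each above 0 as deposited and below 0 under the 3 rescaled settings. The number of the 10 genes past the threshold over both sexes was 3, became 2 with no filter, 4 after rescaling and in both limma voom fits, and 5 when rescaling and leaving out KO female 1 were combined, and ranged from 2 to 4 without 1 liver. In males it was 1 and became 2 after rescaling, 2 without the 20 most abundant genes and 2 when rescaling and leaving out KO female 1 were combined, and ranged from 0 to 3 without 1 liver. In both limma voom fits the 1 gene in males was Kdr in place of Cd34. In females it was 3, became 2 with no filter (Stab1 at an adjusted p of 0.0517), without both early-series livers (Stab1 at 0.293) and in both limma voom fits (again without Stab1), stayed 3 after rescaling with Lyve1 in place of Stab1, and ranged from 1 to 4 without 1 liver. For the sexes in WT it was 1 and became 0 with no filter, after rescaling, without the trend, with the animal-series covariate, without both early-series livers, with rescaling and without KO female 1, and in limma voom with rescaling, and it ranged from 0 to 1 without 1 liver. It remained 0 for the interaction and for the sexes in KO under all alternatives. The capillary minus sinusoidal difference was 0.56, became 0.84 with a pseudocount of 0.1 and 0.23 from summed TPM, and lay between 0.50 and 0.66 without 1 liver. Yap1 stayed past the threshold, from -3.26 to -4.23. Over all genes, the count past the threshold went from 6745 to 4486 for genotype when rescaling and leaving out KO female 1 were combined, and in males from 5663 to 2959 after rescaling, 2943 with KO female 1 left out as well, 3700 in limma voom and 2860 in limma voom with rescaling. In females it went from 4151 to 2750 when rescaling and leaving out KO female 1 were combined. For the sexes in WT it went from 705 to 409 with the covariate, 465 without both early-series livers and 291 to 1698 without 1 liver. For the interaction it went from 112 to 71 in limma voom with rescaling and to 176 without WT male 3, and for the sexes in KO from 10 to 5 in limma voom and to 6 with rescaling there or without KO male 2. The causes were not tested. Combined settings and limma voom were added after the data were seen. Cd34, at 11 to 53 reads in WT, is the gene most limited by depth.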
